A study of Mus musculus with 24 samples.

Results

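The secreted effector proteins of goblet cells were followed across the distal jejunum of 24 mice through the messenger RNA of 8 genes: Retnlb, Clca1, Fcgbp, Zg16, Tff3, Agr2, Spink4 and Klk1. They were chosen by name, as the rows of the deposited tables that carry these symbols, and all 8 were found among the 56691 genes of the count table. The mice were male or female, wild type or Ptk6-/-, and had regular drinking water or water with 100 mM succinate for 7 days, which gives 8 groups of 3 mice with 1 poly(A) RNA library each. Ptk6-/- mice carry a germline disruption of Ptk6, an intracellular tyrosine kinase of epithelial cells, in every tissue and on a C57BL/6 background. The mice were bred in 1 colony, though not in a single litter, and were of matched age, and the labels name no other allele or agent. The groups are called wild type or Ptk6-/-, control or succinate.

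Goblet cells fill the mucus layer of the gut, and their secretion is part of the response to worms and to succinate. In that response tuft cells sense succinate and release interleukin 25, innate lymphoid cells answer with interleukin 13, and the epithelium makes more tuft and goblet cells and switches on effector genes. Among the 8 genes, Retnlb encodes resistin-like molecule beta, a small protein that acts on worms and bacteria, and Zg16 a lectin that binds bacteria in mucus. Clca1 encodes a metalloprotease of mucus, and Fcgbp a large cysteine-rich protein bound to the mucin network. Tff3 is a trefoil peptide of epithelial repair, Agr2 a disulfide isomerase of the endoplasmic reticulum needed for mucin folding, Spink4 a Kazal-type inhibitor of serine proteases, and Klk1 a serine protease, tissue kallikrein. Spink4 and Klk1 were among the goblet cell genes that the study displayed from these same libraries, so their direction here is not independent of that choice.

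Several of the 8 are small secreted proteins with disulfide bonds between cysteines, and the coding sequences show where the cysteine codons lie. The 3 genes below are those with the shortest coding sequences, and they include the 2 that were called after succinate over all mice. They are printed 5′ to 3′ from GENCODE M21 transcripts of GRCm38 with cysteine codons in capitals; Retnlb is shown from base 19 to base 318 of its coding sequence, Spink4 and Tff3 in full.
Retnlb: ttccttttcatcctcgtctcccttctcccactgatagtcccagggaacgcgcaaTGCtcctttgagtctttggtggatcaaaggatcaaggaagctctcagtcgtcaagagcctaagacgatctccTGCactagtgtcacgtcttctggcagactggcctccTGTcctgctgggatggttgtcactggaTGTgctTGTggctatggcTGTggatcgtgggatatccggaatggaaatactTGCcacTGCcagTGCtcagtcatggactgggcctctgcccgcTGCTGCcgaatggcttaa
Spink4: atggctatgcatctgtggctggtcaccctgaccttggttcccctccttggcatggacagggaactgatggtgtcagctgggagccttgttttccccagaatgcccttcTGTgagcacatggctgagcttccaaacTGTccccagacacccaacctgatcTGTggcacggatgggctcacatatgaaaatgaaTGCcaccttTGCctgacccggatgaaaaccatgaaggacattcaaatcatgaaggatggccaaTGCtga
Tff3: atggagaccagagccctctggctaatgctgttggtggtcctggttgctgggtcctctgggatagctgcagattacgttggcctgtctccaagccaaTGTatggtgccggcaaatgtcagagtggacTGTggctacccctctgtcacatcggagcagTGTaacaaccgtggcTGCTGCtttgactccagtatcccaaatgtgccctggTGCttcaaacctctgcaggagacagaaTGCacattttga
Retnlb has 12 cysteine codons among 105 codons, of which 11 are in the stretch shown. Tff3 has 7 among 81 and Spink4 has 6 among 86, whereas Agr2, the folding enzyme, has 1 among 175. Fcgbp is by far the longest, with 2583 codons and 218 cysteine codons. On the deposited coordinates (GRCm39), the short genes lie at chr16:48637219-48639255 on the plus strand (Retnlb), chr4:40920052-40931395 on the plus strand (Spink4) and chr17:31344280-31348620 on the minus strand (Tff3). Clca1 is at chr3:144709578-144738537 on the minus strand and Agr2 at chr12:36042906-36054086 on the plus strand. Chromosome 7 holds Fcgbp (27770661 to 27820287, plus strand), Klk1 (43874784 to 43879042, plus strand) and Zg16 (126649328 to 126686500, minus strand). All 8 are annotated as protein-coding.

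Total counts ranged from 8080321 to 52824743 per library, and the members held 0.877% to 1.84% of the counts other than 18S ribosomal RNA. Ptk6 had 284 to 2405 counts in wild type libraries and 7 to 61 in Ptk6-/- libraries. 3 libraries stood apart. Male wild type control replicate 1 had 51.2% of its counts in Rn18s-rs5, a gene of 18S ribosomal RNA, and male Ptk6-/- succinate replicate 1 had 29.7%, against at most 4.49% elsewhere. The latter was also the library of lowest depth, and 4 ileum markers summed to 8425 CPM (counts scaled to the library's size with TMM factors) in it, against at most 2957 in every other library. Female wild type succinate replicate 2 went against its label as RNA of a female jejunum alone: 4 Y-linked genes summed to 74.3 CPM there, against at most 0.971 in the other 11 female libraries, Xist was at 79.1, and 8 heart muscle markers summed to 22201.5 against at most 235.0 in the other 23 libraries. Airway transcripts were a further difference between libraries. The 11 lung and airway markers summed to 12.9 to 25.2 CPM, with 0 to 2 of them at 0, in all 6 Ptk6-/- females and in female wild type succinate replicate 3, and to 4.16 to 14.3 CPM, with 6 to 10 at 0, in the other 17 libraries. They go with genotype in females, and their part in the results was not tested. The main values that rest on these libraries are given with and without them. Muc2, the mucin that defines goblet cells, was at 1303 to 7414 CPM in the 24 libraries.

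Levels of different genes were compared by FPKM, fragments scaled to transcript length and to the size of the library. Zg16 was the most abundant member in all 12 control libraries, with a median of 2051 FPKM (range 1020 to 4189), and it took 42.6% to 51.7% of the summed FPKM of the 8 members there. Tff3 followed with a control median of 767 FPKM, then Spink4 with 497, Clca1 with 432, Fcgbp with 264 and Agr2 with 224. Klk1 was lower, with a control median of 66.0 FPKM, and Retnlb was close to absent, with a median of 0.275 FPKM and a maximum of 0.625. Each of these 6 genes overlapped its neighbour in that order over the 12 controls, as Tff3 (420 to 2103 FPKM) did with Spink4 (299 to 1366), and Clca1 (139.9 to 524) with Fcgbp (100.2 to 394) and Agr2 (97.2 to 307). Klk1 (29.4 to 78.3 FPKM) lay below all of them, and Retnlb below Klk1, without overlap.

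Levels of 1 gene between libraries were compared as CPM, counts scaled to library size, with replicates 1, 2 and 3 in that order. A member was called in a comparison at an adjusted p under 0.05 and a fold change of at least 2, by edgeR's quasi-likelihood test over all genes. In a bulk sample, fewer goblet cells and less RNA per goblet cell cannot be told apart.

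**Figure D1:**
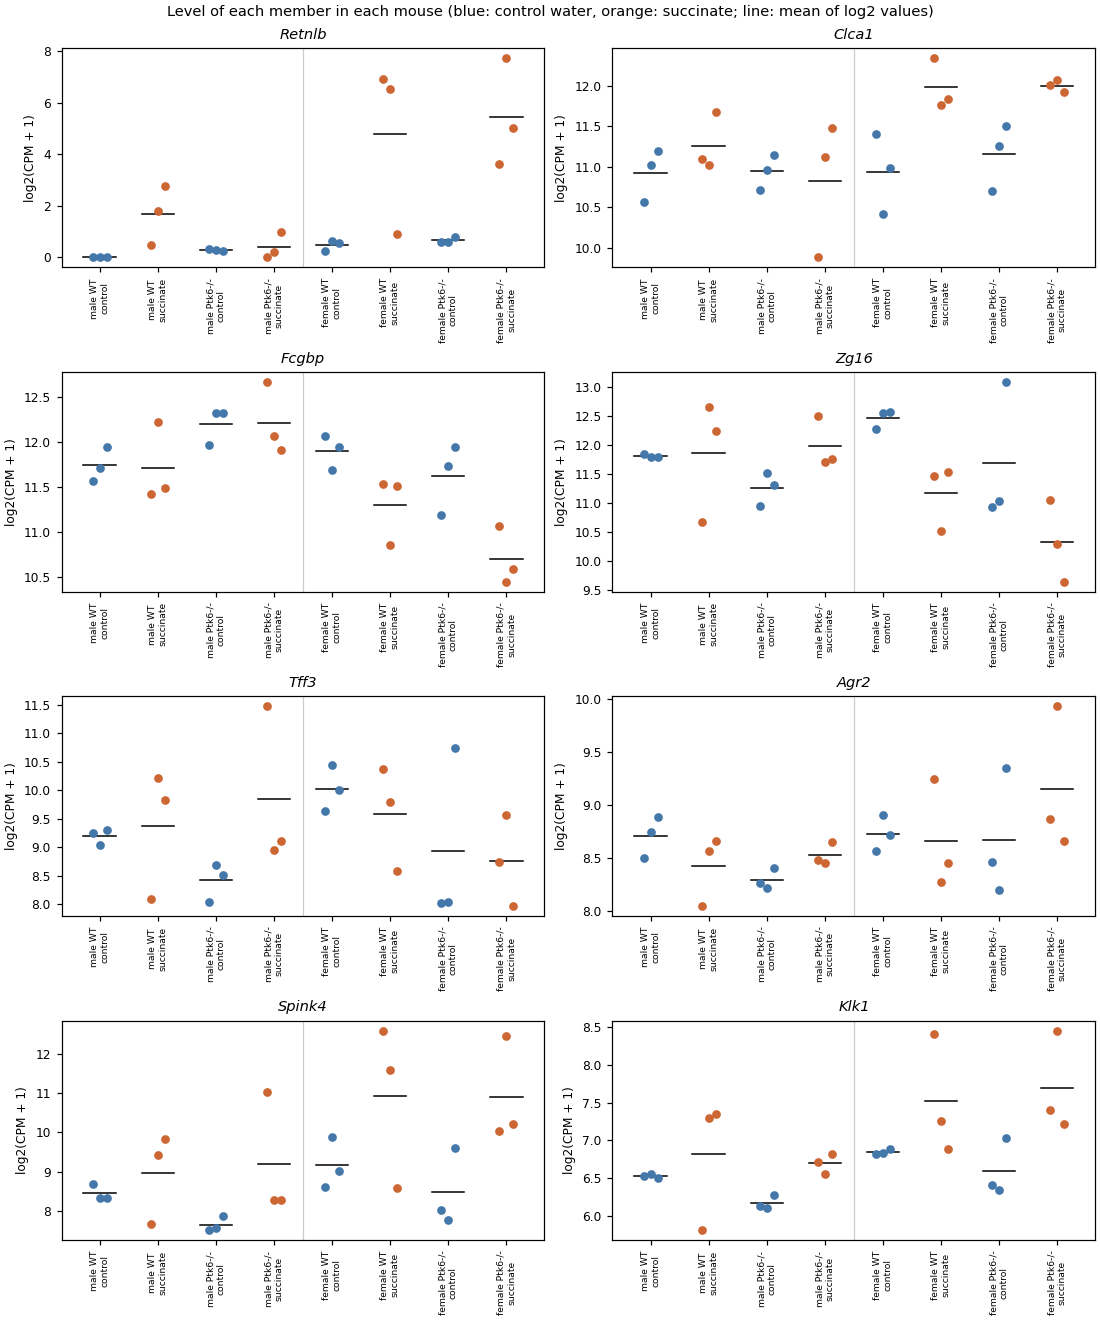
Levels of the 8 members as log2(CPM + 1) on the vertical axes, 1 point per mouse, with groups of 3 mice on the horizontal axes, control in blue, succinate in orange and the group mean of the log2 values as a line. Retnlb went from under 1 CPM in every control to 213.8 CPM in 1 Ptk6-/- female, while the spread within the succinate groups was wide for Spink4, Tff3 and Zg16.

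Retnlb had the largest log2 fold change of the 8 members over all mice and in each pair of groups other than Ptk6-/- males. It had 0 counts in each of the 3 wild type control males, which allows up to 0.118 CPM on average at 3 counts per library, and 8 to 25 counts in each other control. Wild type males held 0, 0 and 0 CPM in controls and 0.404, 2.45 and 5.76 CPM after succinate, at least 24.2-fold higher against the floor of 3 counts per library (adjusted p = 0.947). All 3 succinate mice lay above all 3 controls, with replicate 1 closest to them. Ptk6-/- males held 0.257, 0.219 and 0.174 CPM in controls and 0, 0.171 and 0.998 CPM after succinate, so the groups overlapped and replicate 1, the shallow library, had no count. The difference in Ptk6-/- males was 1.14 ± 0.88 (SE) on the log2 scale with an adjusted p of 0.679, and 1.40 without that library.

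The highest Retnlb levels were in females. Wild type females held 0.197, 0.540 and 0.464 CPM in controls and 120.3, 91.9 and 0.901 CPM after succinate. Replicates 1 and 2 were over 90 CPM, and replicate 3 stayed just above the controls, although the groups did not overlap. The log2 fold change was 7.48 ± 1.59 (SE) with an adjusted p of 0.382, 7.27 without replicate 2 (adjusted p = 0.753), and 8.08 without replicate 3 (adjusted p = 0.00362), where Retnlb was called. Without replicate 1 it was 6.85 (adjusted p = 0.499). Ptk6-/- females held 0.519, 0.510 and 0.722 CPM in controls and 11.3, 214 and 31.8 CPM after succinate. Every succinate mouse lay more than 10 CPM above every control, and replicate 2 was the highest of all 24 libraries. The log2 fold change was 7.18 ± 1.20 (SE) with an adjusted p of 0.148, and Retnlb was called when succinate replicate 1 was left out (7.70, adjusted p = 0.0374). Without replicate 2 it was 5.19, and the adjusted p over the 6 fits that left out 1 library reached 0.465.

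Spink4, the protease inhibitor, showed the next largest differences, and they were uneven between mice of 1 group. Wild type males held 411, 323 and 319.6 CPM in controls and 201, 686 and 909 CPM after succinate, where replicate 1 lay below every control and the other two above. The log2 fold change was 0.76 ± 0.50 (SE, adjusted p = 0.947), and 1.14 (adjusted p = 0.0160) without that mouse, at which Spink4 was called; leaving out each library in turn gave 0.30 to 1.14. That mouse also stood apart from replicates 2 and 3 in its slope of log2 CPM on log2 length (0.886 against 0.689 and 0.724) and in its summed markers of Paneth cells (16171 against 36862 and 32224 CPM), ileum (525 against 2204 and 2957 CPM) and enterocytes (22622 against 46937 and 38121 CPM). Their part in its low Spink4, Klk1, Zg16 and Tff3 was not tested. Ptk6-/- males held 182, 188 and 233 CPM in controls and 2076, 311 and 311 CPM after succinate. The groups did not overlap, but the high value was in the library rich in ribosomal RNA, and the log2 fold change of 2.27 ± 0.81 (SE, adjusted p = 0.600) became 0.61 without it.

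Spink4 in wild type females was at 387, 935 and 517 CPM in controls and 6149, 3091 and 384 CPM after succinate. Replicates 1 and 2 exceeded every control by more than 3-fold, and replicate 3, the mouse with little Retnlb, lay below all of them. Its log2 fold change was 2.41 ± 0.90 (SE, adjusted p = 0.617), 2.45 without replicate 2, and 2.95 (adjusted p = 0.0386) without replicate 3, when it was called, but 1.504 (adjusted p = 0.627) without replicate 1. In Ptk6-/- females Spink4 was at 261, 218 and 782 CPM in controls and 1046, 5584 and 1186 CPM after succinate. The groups did not overlap, and replicate 2 was again the highest. The log2 fold change was 2.61 ± 0.83 (SE) with an adjusted p of 0.402, and it was 1.38 without replicate 2 and 3.42 without control replicate 3, neither called. The highest succinate libraries, wild type replicate 1 and Ptk6-/- replicate 2, had slopes of log2 CPM on log2 length of 0.660 and 0.656. Wild type replicates 2 and 3 had 0.807 and 0.829, and Ptk6-/- replicates 1 and 3 had 0.789 and 0.856. Alternative settings that kept every library, a length offset among them, gave 1.77 to 2.42 in wild type and 2.20 to 2.63 in Ptk6-/-. The part of the slope in single libraries was not tested.

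Klk1, the protease of the set, was at 84.0, 80.1 and 129 CPM in Ptk6-/- control females and 168, 351 and 148 CPM after succinate. The groups did not overlap, with a log2 fold change of 1.16 ± 0.41 (SE) and an adjusted p of 0.422. Leaving out each library in turn gave 0.67 to 1.42. Wild type females held 112, 113 and 117 CPM in controls and 339, 152 and 117 CPM after succinate, a log2 fold change of 0.85 ± 0.42 (SE, adjusted p = 0.674). Those groups were separated only by a margin smaller than 1 CPM, because replicate 3 lay just over the highest control, and the log2 fold change was 0.25 without replicate 1 and 1.03 without replicate 2. Ptk6-/- males held 68.8, 67.7 and 76.9 CPM in controls and 104, 93.1 and 112 CPM after succinate, without overlap, at 0.57 ± 0.19 (SE, adjusted p = 0.600); here the estimate was 0.50 without the ribosomal RNA-rich library. Wild type males held 91.1, 93.0 and 89.6 CPM and 55.2, 156 and 162 CPM, and replicate 1 was again below the controls while the other two were above.

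**Figure D2:**
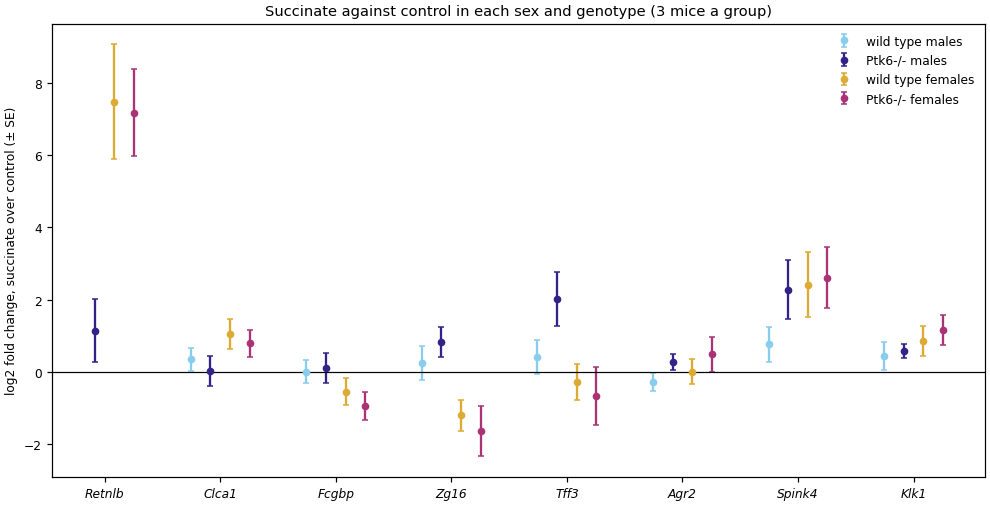
Fitted log2 fold changes of succinate over control (vertical axis, points) with their standard errors (bars) for each member on the horizontal axis, coloured by sex and genotype, with 3 mice a group. Retnlb in wild type males is left out because all 3 controls had no count; Zg16 and Fcgbp lie below 0 in females of both genotypes, Spink4 and Klk1 above 0 in all 4 pairs of groups.

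Transcripts for proteins of the mucus lay in different directions after succinate in females, Clca1 higher and Fcgbp and Zg16 lower, without a call. Markers of enterocytes, the absorptive cells, lay in the direction of Fcgbp and Zg16. In wild type females 12 of 14 were lower after succinate (median log2 fold change -0.70), and in Ptk6-/- females 11 of 14 (-0.86). The medians of all genes were 0.03 and -0.04. None of the markers was called by edgeR, and 3 had an unadjusted p under 0.05 in each genotype, beside 7.77% and 10.7% of all genes. Their summed level was 49723 to 56772 CPM in wild type control females and 28481 to 38178 CPM after succinate, and 24685 to 60966 CPM and 18678 to 23868 CPM in Ptk6-/- females, so that neither pair of groups overlapped and no marker was at 0. Their part in the Fcgbp and Zg16 values was not tested. Clca1 was at 2704, 1364 and 2024 CPM in wild type control females and 5186, 3459 and 3646 CPM after succinate, and at 1659.8, 2449.8 and 2901 CPM and 4119.9, 4276 and 3883 CPM in Ptk6-/- females. Succinate mice were above all controls in both genotypes, with log2 fold changes of 1.04 ± 0.42 (SE, adjusted p = 0.626) and 0.79 ± 0.38 (SE, adjusted p = 0.499), and the 3 Ptk6-/- succinate females lay close together. Without replicate 2, the wild type value was 1.15. In wild type males Clca1 was at 1519.9, 2072 and 2341 CPM in controls and 2193, 2069 and 3259 CPM after succinate, and in Ptk6-/- males at 1681, 1995 and 2269.8 CPM and 944, 2229 and 2851 CPM. The male groups overlapped in both genotypes, and the lowest male value was in the ribosomal RNA-rich library.

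Fcgbp was lower after succinate in females. It was at 2327, 3406 and 3929 CPM in Ptk6-/- control females and 2148, 1397 and 1537 CPM after succinate, without overlap, at -0.95 ± 0.39 (SE) on the log2 scale (adjusted p = 0.453). Wild type females held 4280.4, 3300.3 and 3925 CPM and 2958, 1848 and 2923 CPM, also without overlap, at -0.55 ± 0.38 (SE, adjusted p = 0.754), and at -0.35 without replicate 2. The male groups overlapped, with 3026, 3346 and 3938 CPM and 2746, 4775 and 2883 CPM in wild type males. Ptk6-/- males held 3991, 5115 and 5109.6 CPM and 6494, 4273 and 3860.5 CPM, with the ribosomal RNA-rich library the highest.

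Zg16, the most abundant member in controls, was at 4957, 6021 and 6065 CPM in wild type control females and 2815, 1467 and 2986 CPM after succinate. Every succinate mouse was below every control, at -1.21 ± 0.43 (SE) on the log2 scale (adjusted p = 0.617) and -0.94 without replicate 2. Ptk6-/- females held 1951, 2110.1 and 8676 CPM in controls and 2118, 1266 and 804 CPM after succinate, at -1.63 ± 0.70 (SE, adjusted p = 0.465). These groups overlapped, 1 control (replicate 3) was more than 4-fold above the other two, and the log2 fold change was -0.57 without it. Wild type males held 3688, 3549 and 3568 CPM and 1642, 6424 and 4865 CPM, with replicate 1 low and the others high. In Ptk6-/- males Zg16 was at 1981, 2927 and 2548 CPM and 5804, 3335 and 3488 CPM, all succinate mice above all controls, at 0.82 ± 0.42 (SE, adjusted p = 0.600), and 0.43 without the ribosomal RNA-rich library.

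Tff3, the repair peptide, had fold changes that rested on single libraries in Ptk6-/- mice. In Ptk6-/- males it was at 264, 415 and 366 CPM in controls and 2848, 494 and 550.1 CPM after succinate, without overlap, at 2.00 ± 0.75 (SE) on the log2 scale (adjusted p = 0.600). Without the ribosomal RNA-rich library the value was 0.56. Ptk6-/- females held 260.4, 261 and 1708 CPM and 429, 757 and 251 CPM, at -0.66 ± 0.80 (SE, adjusted p = 0.798), which turned to 0.85 without control replicate 3. That control was the same mouse that had the highest Zg16 of the series. Wild type males held 609, 528 and 634 CPM and 272, 1187 and 907 CPM, and wild type females 796, 1390.2 and 1027 CPM and 1326, 891 and 384 CPM, with overlap in both sexes.

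Agr2, which folds mucins, was at 361, 429 and 474 CPM in wild type control males and 264, 379 and 405 CPM after succinate. Ptk6-/- males held 306, 298 and 339 CPM and 358, 349 and 401 CPM, separated by a narrow margin, at 0.27 ± 0.22 (SE) on the log2 scale (adjusted p = 0.695) and 0.23 without the ribosomal RNA-rich library. Wild type females held 379, 478 and 419 CPM and 605, 309 and 350.0 CPM, and Ptk6-/- females 353, 293 and 653 CPM and 467, 977 and 403 CPM, with overlap in both. Its highest value, in Ptk6-/- succinate female replicate 2, was in the same mouse as the highest Retnlb and Klk1.

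None of the 8 members was called for succinate in any of the 4 pairs of groups by edgeR, where 0% of all genes were called in wild type males, Ptk6-/- males and wild type females and 0.0879% in Ptk6-/- females. At an unadjusted p under 0.05 there were 1 member in wild type males, 3 in Ptk6-/- males, 4 in wild type females and 5 in Ptk6-/- females, beside 4.07%, 7.75%, 7.77% and 10.7% of all genes. DESeq2 called 1, 0, 1 and 2 members in the same order, among 47 of 19183, 39 of 18966, 258 of 18872 and 433 of 19334 genes. With sample weights, voom called 2, 0, 0 and 1 members, among 1498, 16, 37 and 200 of those genes. Groups did not overlap for 1 of 8 members in wild type males, beside 8.77% of all genes. The number was 5 of 8 in each of the other three, beside 23.0% in Ptk6-/- males, 13.3% in wild type females and 21.2% in Ptk6-/- females.

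**Figure D3:**
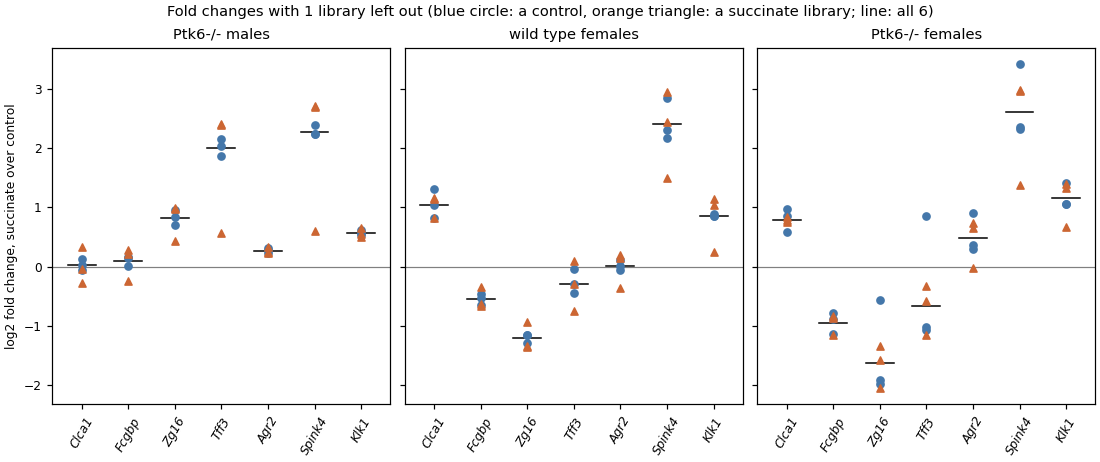
Log2 fold changes of succinate over control (vertical axis) for 7 members (horizontal axis) when 1 of the 6 libraries was left out, a control (blue circles) or a succinate library (orange triangles), with the value from all 6 as a line; Retnlb, on a wider scale, is in the text. Leaving out male Ptk6-/- succinate replicate 1 took Tff3 from 2.00 to 0.56, and leaving out female Ptk6-/- control replicate 3 took Tff3 in females across 0.

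The response averaged over the 4 pairs of groups used all 24 mice. Retnlb and Spink4 were called, 2 of 8 members beside 0.728% of all genes. Retnlb rose by 6.47 ± 0.84 (SE) on the log2 scale (adjusted p = 3.41e-04). This average includes wild type males, whose fitted value rests on controls without a count; over the other 3 pairs it was 5.30 (adjusted p = 0.00299), and without the 3 libraries that stood apart 6.49 (adjusted p = 0.00367). Spink4 rose by 1.99 ± 0.44 (SE, adjusted p = 0.0295), and by 1.66 without those libraries, when it was no longer called (adjusted p = 0.125). Retnlb was called whichever of the 24 libraries was left out, while Spink4 was not called in 14 of those 24 fits. With an offset for the trend of counts with gene length in each library, Spink4 was at 1.81 (adjusted p = 0.0170) and Retnlb at 6.34 (adjusted p = 2.55e-04). Klk1 had 0.75 ± 0.20 (SE, adjusted p = 0.0680), Clca1 0.55 ± 0.19 (SE, adjusted p = 0.173) and Fcgbp -0.36 ± 0.16 (SE, adjusted p = 0.286). Zg16 had -0.45 ± 0.27 (SE, adjusted p = 0.406), Tff3 0.34 ± 0.36 (SE, adjusted p = 0.667) and Agr2 0.11 ± 0.17 (SE, adjusted p = 0.781).

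Markers of smooth muscle and leukocytes were also read in the average over all mice. Of 7 smooth muscle markers 6 were higher after succinate, and 5 of the 7 had an unadjusted p under 0.05, beside 16.1% of all genes. The 1 called, beside 0.627% of all genes called higher, was Actg2, an actin of smooth muscle, at 1.12 ± 0.26 (SE). Their sums after succinate were 7937, 7700 and 4018 CPM in wild type females, 3826, 5297 and 4641 CPM in Ptk6-/- females and 1945, 3457 and 6597 CPM in wild type males, in each group in the order of Retnlb. In Ptk6-/- males they were 3030, 2795 and 2926 CPM, not in that order, and the 12 controls lay between 1804 and 4812 CPM. Of 8 leukocyte markers 6 had an unadjusted p under 0.05, beside the same 16.1% of all genes, and none was called by edgeR, with a median log2 fold change of -0.43. The part of both lists in the member values was not tested.

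The make-up of the members' RNA, as shares of their summed FPKM within a library, differed most in Spink4 and Zg16. Secreted protein was not measured. In controls Spink4 took 8.07% to 18.3%. It took 63.1% and 58.6% in wild type succinate females 1 and 2, and 14.4% in female 3. Ptk6-/- succinate females had 33.3%, 69.2% and 46.9%, so that Spink4, not Zg16, was the most abundant member in all 3. Zg16 was in second place or below there, with shares of 25.6%, 5.96% and 12.1%. In succinate males Zg16 stayed the most abundant member in 5 of 6 libraries, and Tff3 led in male Ptk6-/- succinate replicate 1 with 36.1%.

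**Figure D4:**
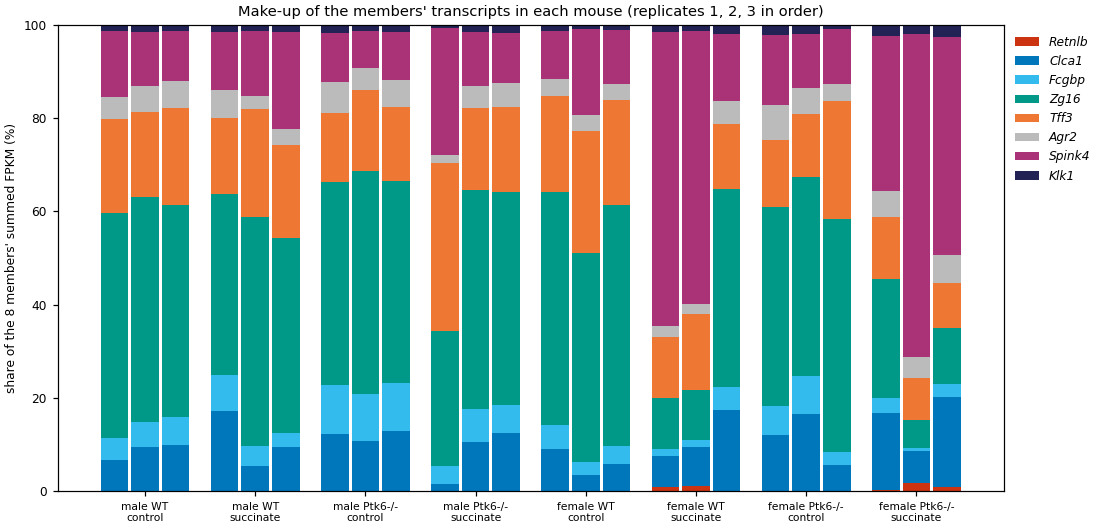
Shares of the 8 members' summed FPKM (vertical axis, percent, stacked from 0 to 100) in each of the 24 libraries on the horizontal axis, grouped by sex, genotype and treatment, with 1 colour per gene. Spink4 covers 33.3% to 69.2% of the bar in the 3 Ptk6-/- succinate females and in 2 of 3 wild type succinate females, while Zg16 is the largest share in every control.

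To ask whether Ptk6 sets the level of these genes without succinate, genotypes were compared within the controls. In males, 6 of the 7 members tested had groups that did not overlap, beside 31.4% of all genes. Retnlb had too few counts to be tested there. Its wild type controls had 0 counts, and the floor of 3 counts in replicate 1 (0.243 CPM) lay above Ptk6-/- values of 0.219 and 0.174 CPM. Separation was thus not shown for Retnlb. No tested member was called, beside 0.739% of all genes, while 5 members had an unadjusted p under 0.05 by edgeR, beside 25.2% of all genes. DESeq2 and voom also called no member, among 311 and 577 of 19218 genes. Spink4, at 411, 323 and 319.6 CPM in wild type and 182, 188 and 233 CPM in Ptk6-/- males, had the smallest adjusted p (0.0423) at a log2 fold change of -0.83 ± 0.18 (SE), which is under 2-fold; 4.23% of all genes had an adjusted p under 0.05 at any fold. Tff3 was at -0.78 ± 0.19 (SE, adjusted p = 0.0571), Zg16 at -0.56 ± 0.22 (SE, adjusted p = 0.165), Agr2 at -0.44 ± 0.14 (SE, adjusted p = 0.0949) and Klk1 at -0.38 ± 0.11 (SE, adjusted p = 0.0772). Fcgbp was higher in Ptk6-/- males, at 0.45 ± 0.22 (SE, adjusted p = 0.252). Ileum markers were lower in Ptk6-/- control males for 3 of 4 (3 at an unadjusted p under 0.05, median log2 fold change -0.62), and enteroendocrine markers for 10 of 12 (6 at an unadjusted p under 0.05, median -0.36), with none called by edgeR in either list. Their part in the member values was not tested.

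Genotype in control males went with a property of the libraries. Regressed on log2 gene length, log2 CPM had a slope of 0.713 to 0.770 in the wild type control males and 0.863 to 0.917 in the Ptk6-/- control males, so that short genes took relatively fewer reads in the latter. Spink4, Tff3 and Zg16 have the shortest transcripts of the members and Fcgbp the longest. With an offset for each library's length trend, Spink4 was at -0.43 (adjusted p = 0.171), Tff3 at -0.40, Zg16 at -0.36 and Fcgbp at 0.20. Without wild type control replicate 1, the ribosomal RNA-rich library, Spink4 was at -0.66 (adjusted p = 0.0416), Tff3 at -0.72, Zg16 at -0.50, Agr2 at -0.50, Klk1 at -0.34 and Fcgbp at 0.40. The same slope was lowest in male Ptk6-/- succinate replicate 1 (0.629), the library with the highest Tff3 of the series.

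In control females no member separated the genotypes, 0 of 8 beside 18.9% of all genes. None was called either, beside 0.0158% of all genes (0.00525% higher and 0.0105% lower in Ptk6-/-), and none had an unadjusted p under 0.05 by edgeR, beside 11.1%. DESeq2 called 0 members, among 263 genes, and voom with sample weights 2 (Zg16 and Tff3), among 1972 of 19035 genes. Ptk6-/- control replicate 3 stood above replicates 1 and 2 for every member, Zg16, Tff3 and Spink4 among them, with a length slope of 0.684 against 0.849 and 0.892. Its sums were also higher for markers of enterocytes (60966 against 24685 and 32162.5 CPM), ileum (1818 against 414 and 686 CPM) and enteroendocrine cells (639 against 315 and 262 CPM). In each of these lists replicates 1 and 2 lay below every wild type control female. The part of these lists in the member values was not tested. Without replicate 3, Zg16 was at -1.43 and Tff3 at -1.99 (adjusted p = 0.0275 and 0.0275), both called. With both sexes together, Retnlb was called, 1 of 8 members beside 0.705% of all genes, at 3.43 (adjusted p = 0.0284). That fitted value rests on the wild type males without a count, since mean levels were 0.400 CPM in Ptk6-/- and 0.200 CPM in wild type controls. Retnlb was not called in 9 of the 12 fits that left out 1 library (adjusted p up to 0.0818). DESeq2 called no member in this comparison, among 277 of 20428 genes.

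Sexes were compared in controls because the study followed both. None of the members was called, beside 0.0538% of all genes, while DESeq2 and voom each called 1, Retnlb in both, among 86 and 27 of 20428 genes. At an unadjusted p under 0.05 there were 4 by edgeR, all higher in females, beside 12.3% of all genes. Mean Spink4 was 516.5 CPM in females and 276.0 CPM in males, at 0.90 ± 0.31 (SE, adjusted p = 0.404). Tff3 was at 0.94 ± 0.41 (SE) and Klk1 at 0.36 ± 0.13 (SE, adjusted p = 0.404 for each). Without the 3 libraries that stood apart, Spink4 was at 1.01, Tff3 at 1.00 and Klk1 at 0.40, and none was called. Without female Ptk6-/- control replicate 3, Tff3 was at 0.20 and Spink4 at 0.51. Retnlb was at 0.492 CPM in females and 0.108 CPM in males, and its fitted value again rests on the males at 0. Paneth cell markers were higher in control females for 12 of 13 and lower for 1 (5 at an unadjusted p under 0.05, median 0.62). Smooth muscle markers were higher for 6 of 7 and lower for 1 (5 at that p, median 0.61). None was called by edgeR in either list, and their part in the member values was not tested.

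Whether the response to succinate differed by genotype or sex was tested as an interaction, and no member was called in any of the 4 tests by edgeR, beside 0% of all genes in each. Between genotypes in males, Retnlb was the only member of 8 with an unadjusted p under 0.05, beside 3.80% of all genes, and DESeq2 called it among 65 of 20340 genes. The fitted size is not given, because of the controls at 0. In females no member had an unadjusted p under 0.05, beside 6.46% of all genes, and the estimate for Retnlb was -0.29 ± 1.77 (SE) between genotypes (adjusted p = 0.990). It ran from -2.24 to 0.35 with 1 library left out, and its standard error was too wide to tell the responses alike or different.

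Between sexes, the estimate for the Retnlb response in Ptk6-/- mice was higher in females by 5.92 ± 1.43 (SE, adjusted p = 0.343), without a call by edgeR, and DESeq2 called it among 180 of 20471 genes. Besides Retnlb, Zg16 and Tff3 had an unadjusted p under 0.05, 3 of 8 members beside 7.12% of all genes. The estimate for Zg16 in Ptk6-/- mice was -2.42 ± 0.82 (SE, adjusted p = 0.563) and that for Tff3 -2.62 ± 1.16 (SE, adjusted p = 0.690). Without the 3 libraries that stood apart these were 5.75, -2.07 and -1.22. Without female Ptk6-/- succinate replicate 2 the Retnlb estimate was 4.003, and without female Ptk6-/- control replicate 3 that of Zg16 was -1.38 and that of Tff3 -1.14. In wild type mice, the estimate for Zg16 was -1.46 ± 0.64 (SE, adjusted p = 0.908), the only member with an unadjusted p under 0.05 beside 5.28% of all genes, and -1.21 without those libraries. No member was called between genotypes after succinate either, in males (0% of all genes) or in females (0%), and none had an unadjusted p under 0.05 there by edgeR, beside 2.72% and 4.52%. Groups did not overlap for 0 of 8 members in each, beside 8.66% and 10.8% of all genes. In those 2 comparisons DESeq2 called no member, among 67 of 18904 genes in males and 28 of 19180 in females. In males voom called 1 member, Retnlb, among 1798 of 18904 genes, and in females none of 19180 genes.

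Other goblet cell genes were read beside the members. Of 28 such genes, which include Muc2 and the transcription factors Atoh1 and Spdef, none was called by edgeR for succinate in any pair of groups or over all mice. At an unadjusted p under 0.05 there were 1 of 27, 4 of 28, 2 of 27 and 10 of 27 tested in wild type males, Ptk6-/- males, wild type females and Ptk6-/- females, beside 4.07%, 7.75%, 7.77% and 10.7% of all genes. Their fitted values in Ptk6-/- females were above 0 for 19 of 27, and the middle one was 0.60 (log2) beside -0.04 for all genes. Over all mice 14 of 28 had an unadjusted p under 0.05, beside 16.1% of all genes, 16 higher and 12 lower among the 28. Their median log2 fold change was 0.08, with all genes at -0.0025 and the 8 members at 0.44, a middle value that the fitted size of Retnlb, the highest, does not move. Muc2 was the 1 of 28 called in control males, higher in Ptk6-/- by 1.31 ± 0.26 (SE, adjusted p = 0.0378) beside 0.515% of all genes called higher, and in Ptk6-/- controls of both sexes Muc2 by 1.36 and Ern2, a sensor of unfolded protein in mucous cells, by 1.06. The 2 calls in both sexes stand beside 0.524% of all genes called higher. By direction the list was mixed in Ptk6-/- controls. In control females 14 of 27 were higher and 13 lower (median 0.06), and 3 had an unadjusted p under 0.05, beside 11.1% of all genes. The summed level of the list in control males was 8961.5 to 12810 CPM in Ptk6-/- and 5791 to 6255 CPM in wild type. In control males 17 of 28 were lower and 11 higher (median -0.12), and 14 had an unadjusted p under 0.05, beside 25.2% of all genes. In both sexes 15 were lower and 13 higher (median -0.03), and 15 had that p, beside 23.8% of all genes. With the length offset 43 genes in all were called in control males, in place of 142, and the value of Muc2 under it is not given here.

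Genes of the interleukin 13 axis and tuft cell markers held the succinate calls that the goblet cell list lacked. The study named Pla2g4c and gasdermin C genes, which are in this axis list, among the most significant in these same libraries. It also reported higher tuft cell markers after succinate in females. The counts of calls in both lists are therefore not independent of those results. Over all mice 12 of 22 tested genes of the axis were called, all higher, beside 0.627% of all genes called higher, and Pla2g4c, a phospholipase, had the smallest adjusted p at 5.80 ± 0.48 (SE, log2). Of 20 tuft cell markers 14 were called, all higher, and Avil, an actin-binding protein of tuft cells, had the smallest adjusted p at 1.67 ± 0.21. In Ptk6-/- females alone, the only pair of groups with calls (0.0879% of all genes), 5 of 20 genes of the axis were called, with Pla2g4c at 7.22 ± 0.48, and 3 of 20 tuft cell markers, with Alox5, an enzyme of leukotriene synthesis, at 3.34 ± 0.38.

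The tuft cell markers summed to 81.6 to 114.0 CPM in all 12 controls. After succinate they summed to 630.7, 578 and 203 CPM in wild type females 1 to 3, where female 3 had 0.901 CPM of Retnlb. Ptk6-/- females were at 299, 589 and 621 CPM, wild type males at 142, 168 and 199 CPM and Ptk6-/- males at 67.7, 81.8 and 137 CPM. The part of tuft cell number in the member values was not tested.

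**Figure D5:**
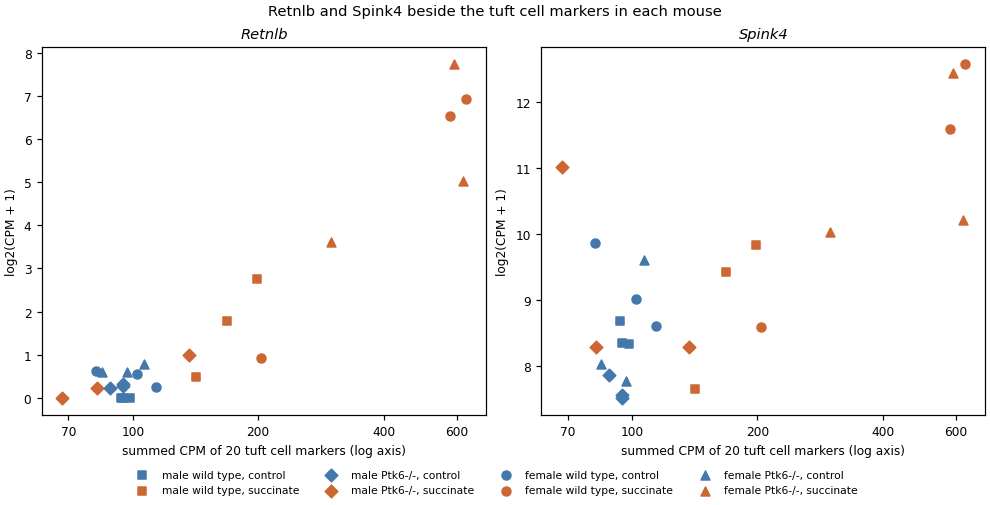
Retnlb (left) and Spink4 (right) as log2(CPM + 1) on the vertical axis against the summed CPM of 20 tuft cell markers on a log axis, 1 point per library, with shape for sex and genotype and colour for treatment. Libraries with tuft sums near 600 CPM have Retnlb from 31.8 to 213.8 CPM; for Spink4, male Ptk6-/- succinate replicate 1 lies high at the left edge.

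Markers of Paneth cells, the antimicrobial cells of the crypt base, were read beside Spink4. The 13 Paneth markers, all detected, summed to 26550 to 28282 CPM in wild type control males and 9572 to 21939 CPM in Ptk6-/- control males, without overlap, as Spink4 was. All 13 were lower in the Ptk6-/- control males, 9 at an unadjusted p under 0.05, beside 25.2% of all genes. Of these markers 3 were called (Defa30 at -1.15, Defa20 at -1.17 and Defa26 at -1.16), beside 0.224% of all genes called lower. In male Ptk6-/- succinate replicate 1 they summed to 40135 CPM, against 10074 and 17203 CPM in the other two of that group. In Ptk6-/- females they summed to 17443 to 60068 CPM after succinate, with the highest in replicate 2, and to 12540 to 37628 CPM in controls. In wild type females the sums were 52756, 19648 and 18740 CPM after succinate against 22191, 52228 and 28974 CPM in controls. There replicate 2 had 3091 CPM of Spink4 with Paneth markers below every control. Over all mice 1 of 13 was called, Mptx1 at 3.62 ± 0.42, beside 0.728% of all genes. There 10 of 13 were higher and 3 lower (median 0.60), with 6 at an unadjusted p under 0.05, beside 16.1% of all genes. In Ptk6-/- females 9 were higher and 4 lower (median 1.02), with 5 at that p, beside 10.7% of all genes. In wild type females 9 were higher and 4 lower (median 0.43), with 1 at that p, beside 7.77% of all genes. In females, the 4 ileum markers summed to 414 to 2446 CPM in the 6 controls and 88.6 to 1095 CPM in the 6 succinate libraries, the same direction as Zg16. In male Ptk6-/- succinate replicate 1, where Spink4, Tff3 and Zg16 were the highest of their group, they summed to 8425 CPM. The part of both lists in the Spink4, Tff3 and Zg16 values was not tested.

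Among the relatives of the 8 genes, 1 of 13 tested was called over all mice, beside 0.728% of all genes: Retnla, which encodes resistin-like molecule alpha, at 2.91 ± 0.66 (adjusted p = 0.0354). In wild type females 8 of 12 were lower after succinate and 4 higher (median -0.60), with 6 at an unadjusted p under 0.05, beside 7.77% of all genes. In Ptk6-/- females 8 of 13 were lower and 5 higher (median -0.52), with 9 at that p, beside 10.7% of all genes. The other trefoil genes, Tff1 and Tff2, reached at most 0.394 and 0.0871 CPM, and Spink2 and Spink5 at most 0.259 and 0.138 CPM, far below Tff3 and Spink4. Clca4a (85 to 2640 CPM) and Clca4b (462 to 4033 CPM) were as abundant as Clca1 in some libraries. Neither was called for succinate.

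Genes most like each member over the 24 libraries were found by Pearson's r of log2(CPM + 1) among 16617 genes, as a description of libraries that share depth and composition. Retnlb was most like Gsdmcl-ps (0.98), a gasdermin C pseudogene, and Car4 (0.96), a carbonic anhydrase. Clca1 was most like G6pdx (0.91), Fcgbp most like Aldh1l1 (0.91), and Agr2 most like Tmem97 (0.92). Spink4 was most like the defensin-related Defa-ps1 and Defa-ps6 (0.96 each) and Defa23 (0.96). Tff3 was most like Fibp (0.99), Edf1 (0.99) and Aprt (0.98), and Zg16 most like Mettl7b (0.98). Klk1 was most like Chpf (0.94) and Rep15 (0.94), the latter a goblet cell gene.

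Exact stretches of 100 bases shared with annotated transcripts of other genes were found for only 2 members. Shorter or inexact matches, through which reads could also be shared, were not searched. Of the 10590 stretches of 100 bases in the Fcgbp transcripts, 167 occurred in 9530053A07Rik, which was at 18.3 to 115.7 CPM against 1397 to 6494 CPM for Fcgbp. Of 1022 such stretches in Klk1, 52 occurred in Klk1b5 or Klk1b11, and Klk1b5 was at 0 to 11.5 CPM. Retnlb, Clca1, Zg16, Tff3, Agr2 and Spink4 had none. Klk1 overlaps the antisense gene Gm10109, which had at most 11 counts in any library.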

How the data were processed

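RNA of the distal jejunum (TRIzol, poly(A) selection, stranded dUTP libraries, paired-end sequencing) was measured in 24 mice. Per the study's methods, the authors trimmed reads with Cutadapt, mapped them with HISAT2 and assembled transcripts with StringTie and gffcompare; the submitters' processing notes name FastQC, StringTie and GRCm39, and the counting program is not given in the sources used here. The count values, as deposited, are whole numbers of reads per gene without normalization. The FPKM values, as deposited by the authors, come from StringTie and ballgown and were used in the main results only to compare genes within a library; tests between groups on FPKM were alternatives. Total counts were 8080321 to 52824743 per library, and floors and counts cover counting error only, since reads are not independent molecules.

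Tests were run in edgeR 4.0.16 under R 4.3.3: the quasi-likelihood test with TMM scaling, on genes that reached 10 counts in 3 or more libraries of the comparison, with Benjamini-Hochberg adjustment over every gene tested. Members were called at an adjusted p under 0.05 and a fold change of at least 2; the study's methods name DESeq2 with the same thresholds. There were 15 comparisons, each fitted on its own groups. All 8 members were eligible for naming in every comparison, and some that were not called are given by counts only. The 8 members and the gene lists were chosen with earlier results of these data known. From the lists, up to 3 called genes without overlap and with the smallest adjusted p were eligible for naming. Alternatives were DESeq2 1.42.0, its size factors in edgeR, 2 other count filters, no fold threshold, the replicate number as a block, a gene length offset with and without the block, limma 3.58.1 (voom with sample weights, and log2(FPKM + 1) or log2(FPKM + 0.1), on genes averaging 0.5 FPKM or more, or on every gene), all 24 libraries in 1 fit and each library left out. Leaving out the 3 libraries that stood apart, and the average without wild type males, were chosen after seeing the data. Coding sequences and stretches of 100 bases shared between genes were read from GENCODE M21 (GRCm38); no GRCm38 coordinate was used. P-values set a difference between groups against the spread between these libraries, 1 per mouse, so faults of single libraries enter that spread.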

Additional observations from a re-analysis of the deposited data

How the results depend on the processing

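Of 44 fold changes of members, 531 alternatives other than leaving out a library gave 515 in the same direction, and leaving out 1 library gave 419 of 420. The 44 were a selection, most with groups that did not overlap or an unadjusted p under 0.05 by edgeR. The Retnlb genotype interaction in females, which changed sign with 1 library left out, was not among them. Limma on log2(FPKM + 1), log2(FPKM + 0.1) and every gene turned Agr2 in Ptk6-/- males to -0.46, -0.46 and -0.46, Klk1 there to -0.15, -0.16 and -0.15, Tff3 in Ptk6-/- females to 0.0061, 0.0064 and 0.0061, Agr2 between genotypes in control males to 0.0092, 0.0102 and 0.0092, and Klk1 there to 0.0619, 0.0650 and 0.0619. Tff3 in Ptk6-/- females turned to 0.43 with voom, and ranged from -1.16 to 0.85 when 1 library was left out. Across settings the median log2 fold change of all genes lay between -1.10 and 0.92, the extremes both on FPKM, so FPKM directions are relative to such shifts; the cause was not tested.

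Members called for succinate in wild type males numbered 1 with DESeq2 (47 of 19183 genes called), 2 with voom (1498), 1 on log2(FPKM + 1) (126 of 13860) and 1 on log2(FPKM + 0.1) (127). In wild type females there was 1 with DESeq2 (258 of 18872) and 1 with all 24 libraries in 1 fit (87 of 21694). In Ptk6-/- females there were 2 with DESeq2 (433 of 19334) and 1 each with voom (200), log2(FPKM + 0.1) (39 of 14271) and all 24 libraries (132 of 21694). Between genotypes, there was 1 in control males without a fold threshold (4.23% of genes), 2 in control females with voom (1972 of 19035) and 1 in succinate males with voom (1798 of 18904). The genotype interaction in males had 1 with DESeq2 (65 of 20340), and the sex interaction in Ptk6-/- mice 1 with DESeq2 (180 of 20471) and 1 on log2(FPKM + 1) (41 of 14084). The sex comparison in controls had 1 with DESeq2 (86 of 20428) and 1 with voom (27). The single genotype call in controls of both sexes (Retnlb) became 0 with DESeq2, 10 counts in every library, the length offset with the replicate block, all 3 FPKM settings and all 24 libraries (1 to 277 genes called), and 2 with voom (1278 of 20428). Over all mice, the 2 calls became 1 with 10 counts in every library, log2(FPKM + 0.1), every gene on FPKM, without the 3 libraries that stood apart and without wild type males (43 to 98 genes called). In each case the cause was not tested.

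Leaving out each library gave 0 to 1 members called in wild type males, 0 to 0 in Ptk6-/- males, 0 to 2 in wild type females and 0 to 1 in Ptk6-/- females. It gave 0 to 0 in control males, 0 to 2 in control females, 0 to 4 in controls of both sexes, 1 to 2 over all mice, and 0 to 0 in the other 7 comparisons. The 4 calls came without female Ptk6-/- control replicate 3.

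Replicate numbers did not pair the mice: correlations of same-numbered deviations ran from -0.51 to 0.36, and in no comparison were all 3 pairs over 0.1. With the replicate block, members called were 0 in controls of both sexes and 1 over all mice (Retnlb, while Spink4 had an adjusted p of 0.0616), and the number called changed in no other comparison. With 3 mice a group, the smallest p of an exact permutation test is 0.1.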
